A study of Mus musculus with 8 samples.

Results

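A set of 97 protein-coding genes was high in mouse B cells after 3 days with CpG, and low again where LPS, PMA and ionomycin joined the culture for its last 5 hours. The genes were chosen from the measured levels. Each had a mean of at least 5 CPM (counts scaled to the size of the library) in the CpG group, at least 3 times the TLR mean and at least 3 times the Naive mean, with every CpG library above every other library. Of 20182 protein-coding genes in the files, 9446 reached 5 CPM in the CpG group, 654 of these also reached 3 times the Naive mean, 102 also reached 3 times the TLR mean, and 99 kept all CpG libraries above the rest. Leaving out 2 of those by name gave 97 genes, out of 37583 gene identifiers in all. The contrasts of CpG with the other groups therefore chose the genes, and they are described here without a test. The rule capped the TLR and Naive levels against CpG but did not order them, and TLR against Naive cells was tested.

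The 8 RNA-seq libraries came from B cells isolated from C57BL/6 spleens. The TLR group (2 libraries) had CpG ODN1668 for 3 days and LPS, PMA plus ionomycin for its final 5 hours. The CpG group (3 libraries) had CpG ODN1668 alone for 3 days. The Naive group (3 libraries) was naive B cells, and no treatment is given for it. CpG ODN1668 is a short synthetic DNA sensed by TLR9 in endosomes, LPS activates TLR4, PMA activates protein kinase C, and ionomycin carries calcium into cells. The sample titles call both stimulated groups Bregs, a usual short form of regulatory B cells. The labels do not say whether the libraries of a group came from separate mice or cultures, so p-values measure the spread between these libraries, which may be technical.

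B cells that sense CpG through TLR9 enlarge, divide and can start to become antibody-secreting cells. In that course the repressor Blimp-1 (Prdm1) shuts down the B cell programme. PMA and ionomycin act on protein kinase C and calcium, which the antigen receptor also uses to signal.

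Gene counts summed to between 15804311 and 20069272 per library. Reads placed at several sites made up 14.7% to 50.2% of the lines, and were most frequent in replicate 1 of each group, which also carries another library prefix than the rest. Of 14 B cell identity genes, all were detected in every group. Their summed level was 3810 and 4166 CPM in TLR libraries, 12541 to 16244 CPM in CpG libraries and 15958 to 16950 CPM in Naive libraries. All 14 were called lower in TLR than in either other group. Over all tested genes, 29.7% were called lower in TLR than in Naive cells, and 19.8% lower than in CpG cells. In bulk RNA, fewer cells of a kind and less RNA per cell cannot be told apart. T cell markers summed to 34.9 and 36.3 CPM in TLR libraries, 182 to 253 CPM in CpG libraries and 320 to 364 CPM in Naive libraries. In the TLR group 4 of the 14 T cell markers (Cd3e, Cd4, Cd8b1 and Themis) were at 0. In the CpG group 1 of them (Cd8a) was at 0.

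Promoter sequence was at hand for 72 of the 97 genes. The 250 bases before the start of 5 of them are shown because they differ most plainly in kind: Cldn2 and Cdhr2, epithelial genes with almost no transcript in Naive cells, and Steap4, Prdm1 and Csf1, which belong to inflammatory, plasma cell and cytokine programmes. The sequences run 5′ to 3′ along the gene's strand, are from RefSeq on build GRCm38.p6, and end at the base before the annotated start. Capitals mark matches to a TATA box (TATAAA) in Cldn2 and an HNF1 site's first part (GTTAAT) in Cdhr2. In Steap4 they mark a STAT site (TTCNNNGAA) and a pair of matches to the NF-kB consensus. Of that pair, GGGATGCCCC matches on both strands and GGAAAACCCC on the opposite strand alone. In Prdm1 they mark an AP-1 site (TGANTCA), and in Csf1 an NF-kB consensus read on the opposite strand.
Cldn2: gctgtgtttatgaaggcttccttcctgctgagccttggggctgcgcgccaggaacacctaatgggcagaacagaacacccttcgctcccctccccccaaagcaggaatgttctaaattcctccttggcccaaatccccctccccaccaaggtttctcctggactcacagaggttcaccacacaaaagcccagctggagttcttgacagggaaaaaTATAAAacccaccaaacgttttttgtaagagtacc
Cdhr2: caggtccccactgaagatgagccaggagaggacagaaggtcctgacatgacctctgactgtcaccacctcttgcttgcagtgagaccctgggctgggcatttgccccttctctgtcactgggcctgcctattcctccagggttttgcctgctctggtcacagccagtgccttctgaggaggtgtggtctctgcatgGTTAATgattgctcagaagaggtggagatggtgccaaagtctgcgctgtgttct
Steap4: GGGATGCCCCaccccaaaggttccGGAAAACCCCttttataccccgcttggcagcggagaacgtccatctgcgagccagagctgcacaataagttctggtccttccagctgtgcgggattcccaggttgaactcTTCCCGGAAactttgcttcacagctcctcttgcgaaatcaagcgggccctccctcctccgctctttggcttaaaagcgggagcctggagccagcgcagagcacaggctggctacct
Prdm1: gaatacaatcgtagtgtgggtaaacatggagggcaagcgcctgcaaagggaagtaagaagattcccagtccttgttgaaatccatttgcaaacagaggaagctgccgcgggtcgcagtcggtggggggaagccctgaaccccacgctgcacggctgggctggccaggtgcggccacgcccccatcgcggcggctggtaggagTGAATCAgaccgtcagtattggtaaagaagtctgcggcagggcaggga
Csf1: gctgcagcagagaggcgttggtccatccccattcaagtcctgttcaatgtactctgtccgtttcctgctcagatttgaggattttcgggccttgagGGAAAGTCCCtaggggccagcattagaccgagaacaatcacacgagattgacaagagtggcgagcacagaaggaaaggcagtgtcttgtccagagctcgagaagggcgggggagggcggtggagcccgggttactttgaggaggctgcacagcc
The Cldn2 window lies at chrX:139800558-139800807 on the plus strand and holds 4 CG dinucleotides. Its TATA box spans bases -35 to -30 as counted from the RefSeq start. The GENCODE M21 annotation starts this gene at base 139800828, beyond the end of the window. For 4 of the genes shown, the bases after the RefSeq start occur in a GENCODE transcript. The Cdhr2 window lies at chr13:54701213-54701462 on the plus strand, holds 1 CG dinucleotide, and has its match at -54 to -49. The Steap4 window lies at chr5:7960222-7960471 on the plus strand and holds 12 CG dinucleotides. The Prdm1 window at chr10:44458749-44458998 and the Csf1 window at chr3:107760470-107760719 are both on the minus strand, with 15 and 10 CG dinucleotides. In GENCODE M21 Prdm1 runs from base 44437177 to 44528501, so its window lies inside the annotated gene and not before its outermost start. Each match is a description of these letters and not a measured site.

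Across the 72 promoters, matches on either strand in the 250-base window were about as frequent as among coding genes expressed here for most motifs. The NF-kB consensus was present in 12.5% of the 72, against 9.24% of 16522 coding genes and 10.5% of 7646 coding genes expressed here. The STAT motif was present in 9.72%, against 7.72% and 7.13%. AP-1 was present in 4.17%, against 7.203% and 4.71%, and the CRE (TGACGTCA) in 2.78%, against 2.28% and 3.19%. GTTAAT was present in 11.1% (8 genes: Cdhr2, Cfp, Dhrs3, Fggy, Gramd2, Pcyt1b, Ptgr1 and Smim24), against 6.74% and 4.63%. The octamer ATGCAAAT was present in 4.17%, against 1.74% and 1.48%. The 72 windows held a median of 14 CG dinucleotides, against 16 over 9597 tested coding genes. Under 10 were found in 37.5% of the 72 and in 27.6% of the 9597. The surface receptor and adhesion genes had the lowest median of the role groups, 6 in 11 genes with a sequence, and 7 of those 11 held under 10.

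The 97 genes together made up 1315 and 1427 CPM in the TLR libraries, 7135, 6023 and 6700 CPM in the CpG libraries, and 1436, 1139 and 1067 CPM in the Naive libraries. The summed level in TLR cells thus lay next to that of Naive cells. Both TLR libraries were below Naive replicate 1 and above Naive replicates 2 and 3. CpG means of single genes ran between 5.13 and 649 CPM with a median of 24.5 CPM. The CpG mean was 3.02 to 38.7 times the TLR mean (median 4.77) and 3.02 to 994 times the Naive mean (median 7.19). Of the difference between CpG and Naive means, a median of 5.54% was still present in TLR cells, over a range of -36.9% (Gas7) to 32.6% (Wfdc21). A negative share means that the TLR mean was below the Naive mean, which was so for 32 of the 97 genes. Leaving out a library moved that median over the range 3.31% (without TLR replicate 2) to 8.03% (without Naive replicate 1).

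**Figure D1:**
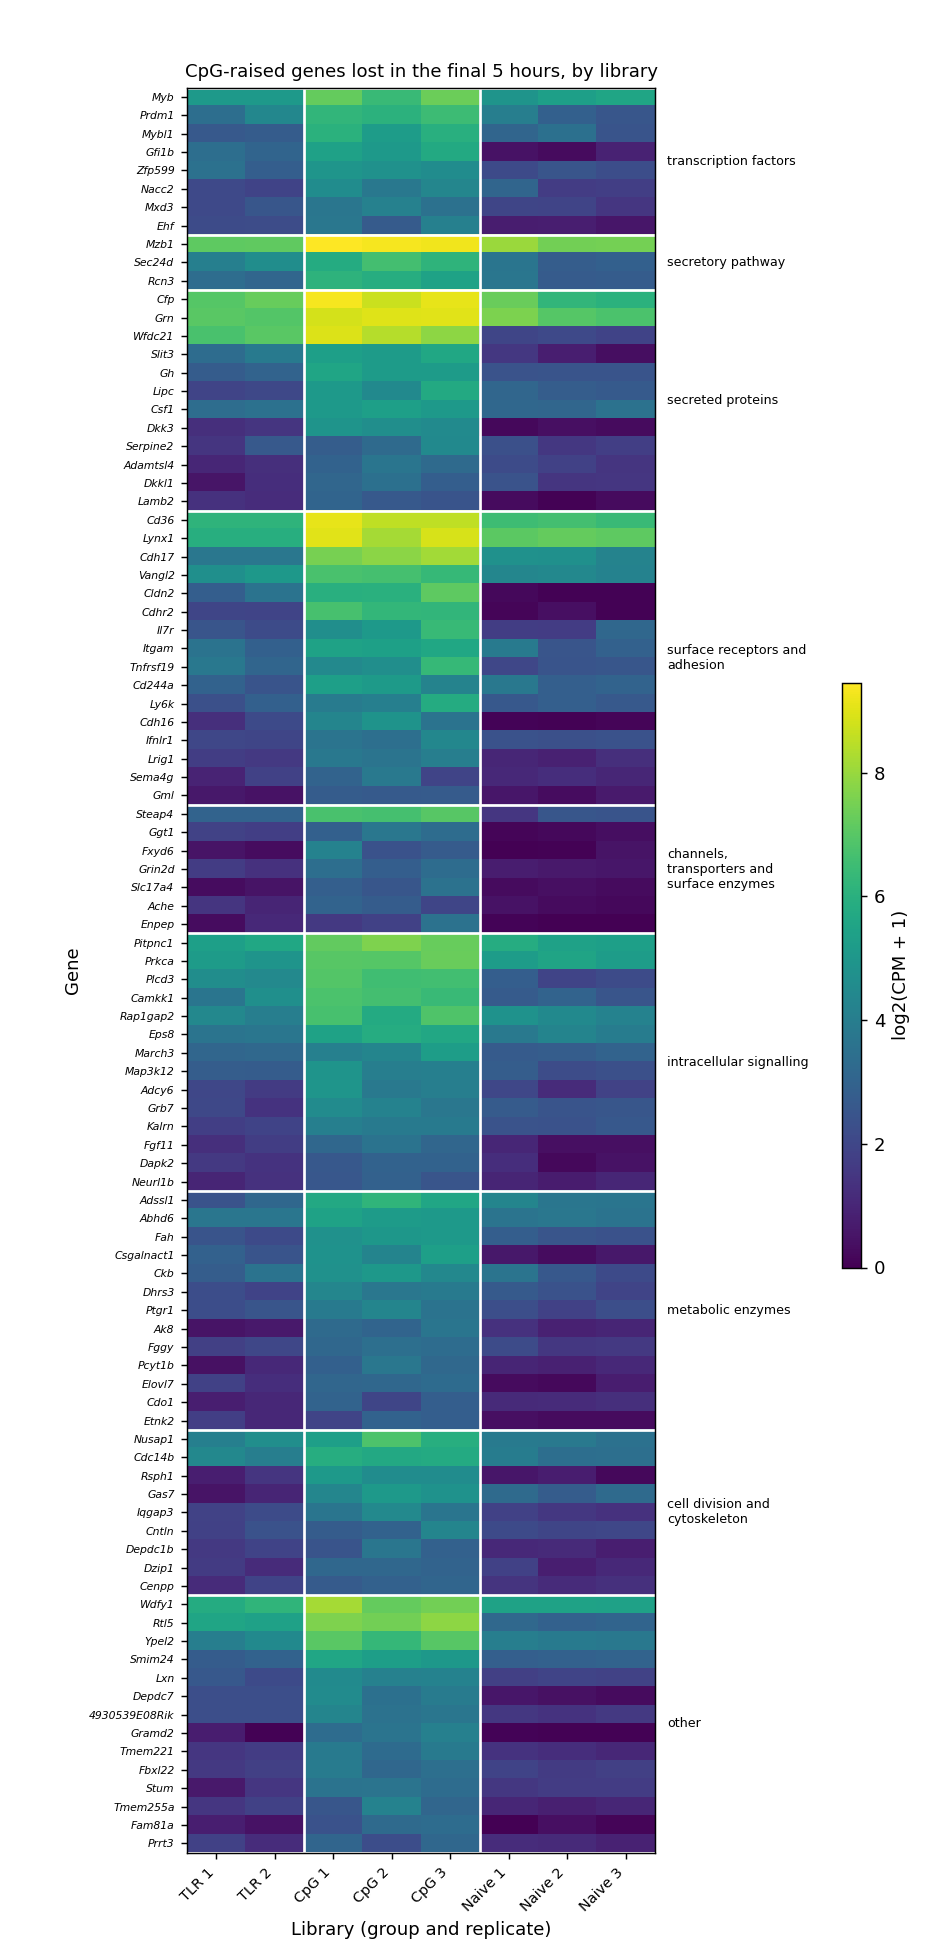
Level of 96 of the 97 genes (rows, grouped by role) in each library (columns), as log2(CPM + 1). The CpG columns are the brightest in every row because the genes were chosen so; the TLR and Naive columns resemble each other in most rows and differ in rows such as Wfdc21, Rtl5 and Plcd3.

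The genes nearest the inside of the thresholds were Wfdc21 with a CpG mean of 3.02 times its TLR mean, Dkkl1 with 3.02 times its Naive mean, and Ckb with 3.04 times its TLR mean. Just outside lay Cox6b2 with 2.996 times its TLR mean, Fcgr2b with 2.993 times its TLR mean, and Ift46 with 2.991 times its Naive mean. Fcgr2b, the inhibitory Fc receptor of B cells, averaged 197 CPM in TLR, 589 CPM in CpG and 191 CPM in Naive cells.

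**Figure D2:**
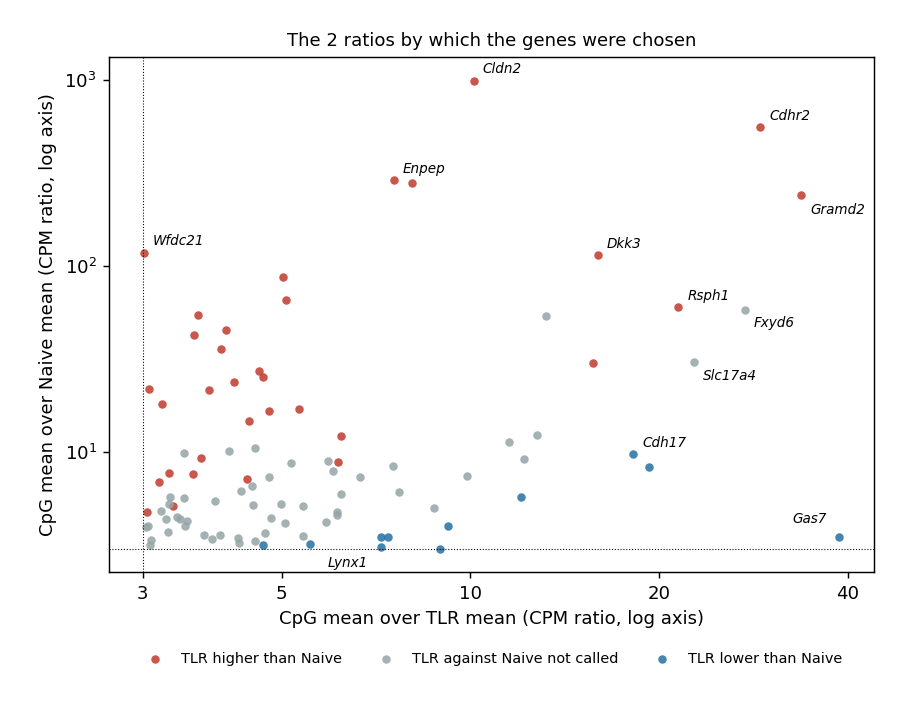
Ratio of the CpG mean to the TLR mean (x axis, log scale) and to the Naive mean (y axis, log scale) for 96 of the 97 genes, coloured by the call of TLR against Naive. Dotted lines mark the threshold of 3; Cldn2 stands highest, at 994 times its Naive mean, and Gas7 farthest right, at 38.7 times its TLR mean.

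Whether these genes had returned to the naive level was tested with edgeR over all 13964 tested genes, calling an adjusted p below 0.05. Of the 97 genes, 34 were higher in TLR than in Naive cells (35.1%), 11 were lower (11.3%), and 52 passed in neither direction. In 6 of the 97 the expression filter was passed through the CpG libraries alone, and 2 of these (Enpep and Gramd2) are among the 34. Over all tested genes, 31.6% were higher and 29.7% lower, 61.2% in either direction. The share called higher was thus near the background and the share called lower was below it. The rule did not cap the levels of that background, so it is not a like set. Of 27 genes with a Naive mean below 1 CPM, 19 were called higher and 0 lower. Of 35 genes at 1 to 5 CPM, 10 were higher and 4 lower, and of 35 at 5 CPM or more, 5 and 7. The Naive mean that sorts these genes is also 1 side of the tested contrast. A gene with few Naive counts can hardly be called lower, so no conclusion is drawn from these counts. The counts by role group below, and those by list against Naive cells, stand beside the same shares of all tested genes. The median log2 fold change was 0.49 over the 97 genes and 0.01 over all tested genes. Both TLR libraries lay above all Naive libraries in 45 genes, below them in 17, and overlapped them in 35, against 39.5%, 38.6% and 21.9% of all tested genes. Without any single library, 21 of the 34 higher calls and 3 of the 11 lower calls (Lynx1, Cdh17 and Gas7) held in every case. The number called higher ranged over 26 to 38 with a library left out. The number called lower was 6 without Naive replicate 1, 4 without TLR replicate 1 and 7 without TLR replicate 2.

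**Figure D3:**
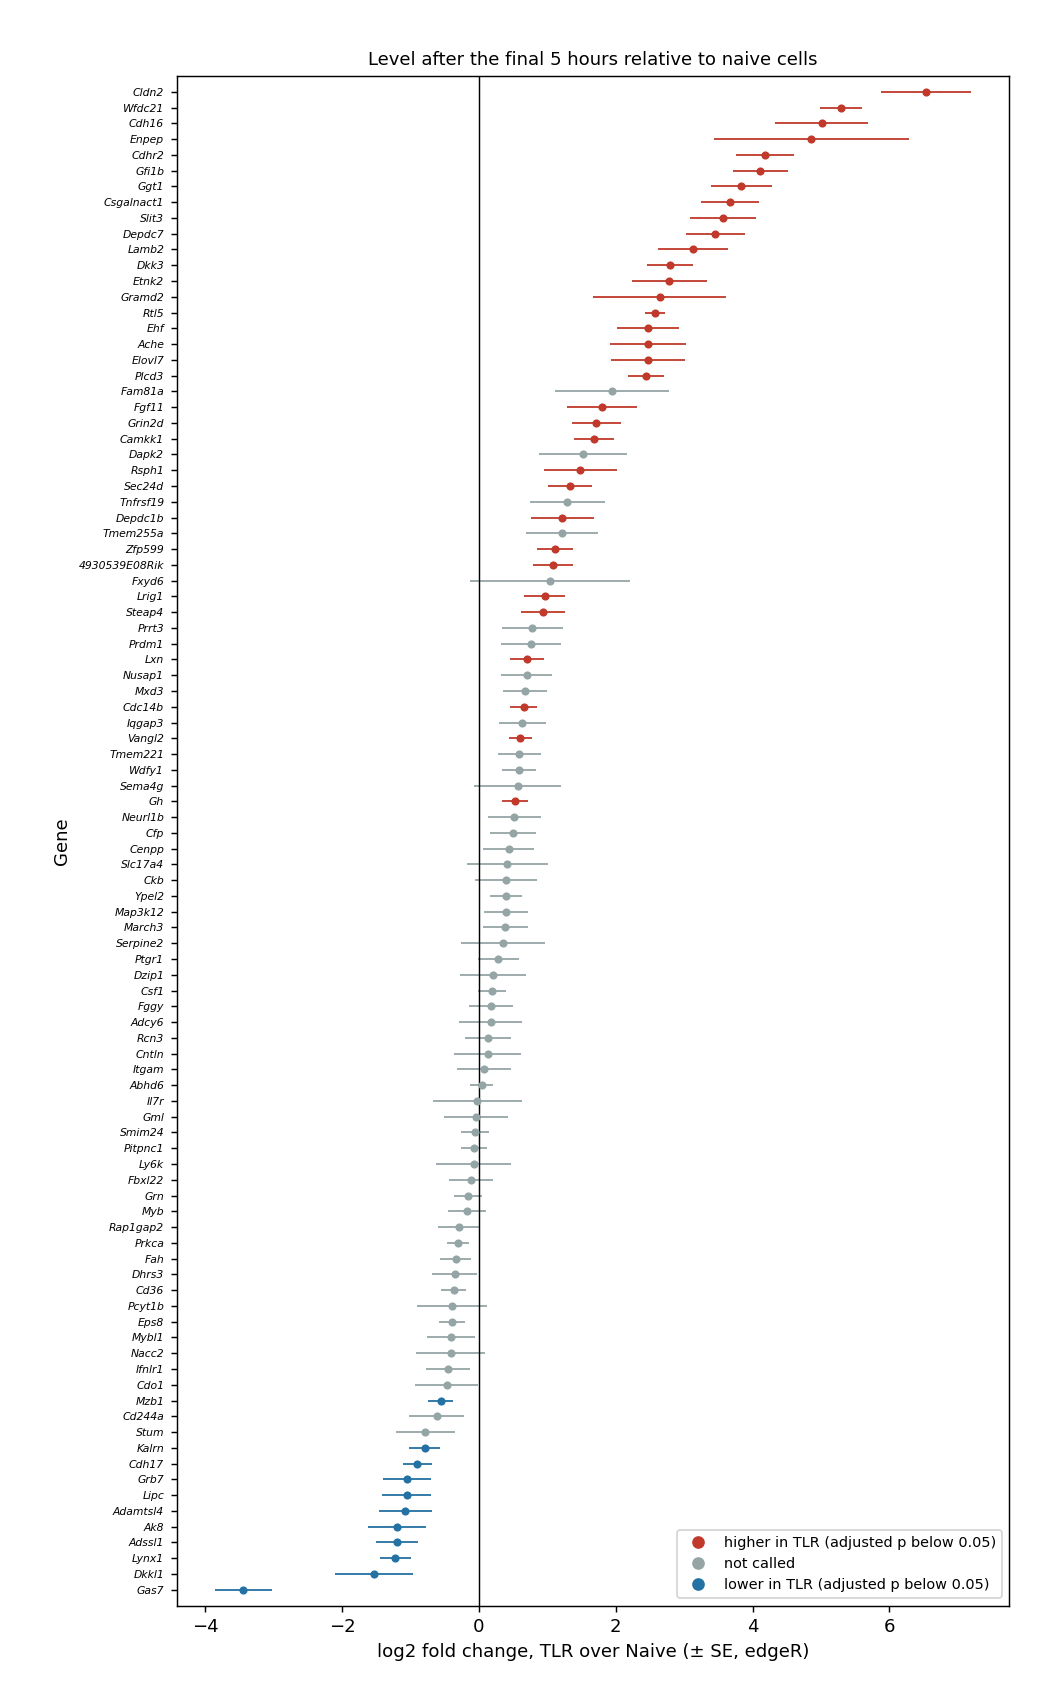
Fitted log2 fold change of TLR over Naive cells for 96 of the 97 genes (points) with its SE (bars), ordered by size; colours give the edgeR call. Cldn2 is highest at 6.54 and Gas7 lowest at -3.44, and the fitted values of Enpep and Gramd2 rest on 1 and 3 Naive counts.

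Among 8 transcription factors, 3 were higher in TLR than in Naive cells (Gfi1b, Ehf and Zfp599) and 5 were not called. Gfi1b is a transcriptional repressor that acts in blood cell development. It had 9.57 and 7.36 CPM in TLR libraries and 42.1, 33.4 and 52.0 CPM in CpG libraries. In Naive libraries it had 0.372, 0.199 and 0.887 CPM. TLR over Naive cells gave a log2 fold change of 4.11 ± 0.40 (edgeR adjusted p = 1.94e-05). Ehf, an ETS factor of epithelia, had 3.53 and 3.60 CPM in TLR libraries, 12.3, 5.62 and 16.5 CPM in CpG libraries, and 0.691, 0.747 and 0.470 CPM in Naive libraries (log2 fold change 2.48 ± 0.45, edgeR adjusted p = 0.00102). Both calls held without each library in turn, whereas Zfp599, a zinc finger gene (log2 fold change 1.11), lost its call without TLR replicate 1 (0.69, edgeR adjusted p = 0.0639).

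Prdm1, which encodes Blimp-1, had 9.80 and 19.9 CPM in TLR libraries, 74.7, 67.0 and 89.0 CPM in CpG libraries, and 15.4, 6.43 and 4.75 CPM in Naive libraries. TLR and Naive libraries overlapped, and the log2 fold change of 0.77 ± 0.44 was not called (edgeR adjusted p = 0.152). Without Naive replicate 1 it was 1.39 (edgeR adjusted p = 0.00554). The 15 macrophage and monocyte markers summed to 22.3 and 29.5 CPM in TLR libraries, 32.9 to 66.3 CPM in CpG libraries, and 1474, 351 and 189 CPM in Naive replicates 1 to 3. All 15 markers were detected in each group, 13 of them were called lower in TLR than in Naive cells, and their part in the result was not tested. Myb, a factor of blood progenitors, had 33.8 CPM in both TLR libraries, 149.9, 83.5 and 159 CPM in CpG libraries, and 28.9, 40.01 and 46.0 CPM in Naive libraries. Its relative Mybl1, known from germinal centre cells, had 5.24 and 5.82 CPM in TLR libraries, 65.4, 36.4 and 62.2 CPM in CpG libraries, and 7.39, 10.2 and 4.49 CPM in Naive libraries. Both returned into or next to the Naive range, with log2 fold changes of -0.18 ± 0.28 for Myb and -0.41 ± 0.35 for Mybl1 and edgeR adjusted p-values of 0.594 and 0.335. Nacc2 and Mxd3, a BTB repressor and a MYC antagonist, were not called either.

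**Figure D4:**
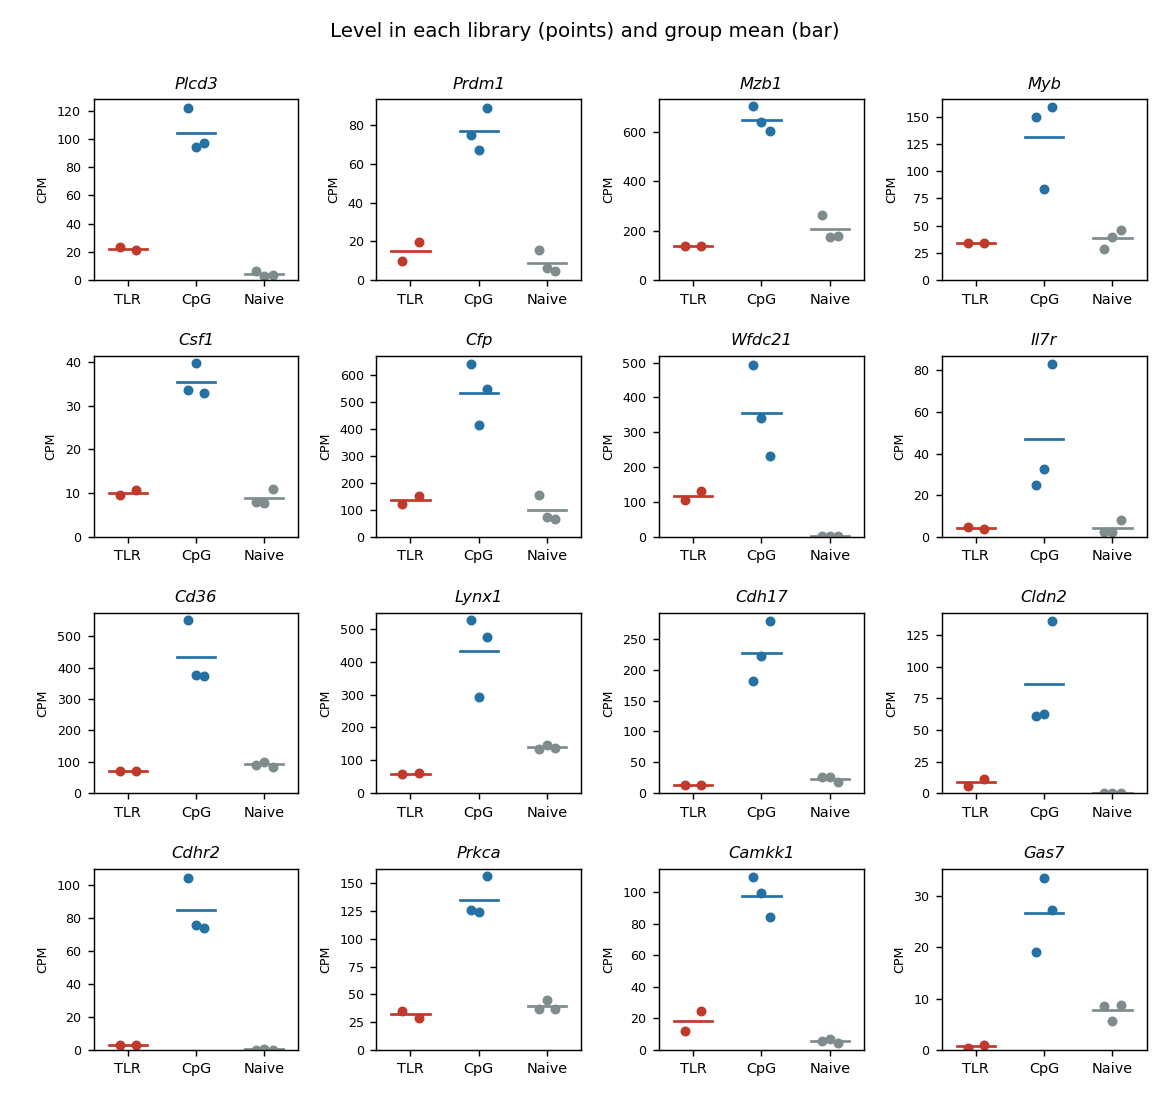
CPM in each library (points) and group mean (bar) for 16 of the genes, each panel with its own axis starting at 0. Plcd3, Wfdc21 and Camkk1 keep TLR points above the Naive points, Lynx1, Cdh17 and Gas7 have them below, and Prdm1, Myb, Cfp and Csf1 have them near or among them.

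The plasma cell list, 17 tested genes of which Prdm1 and Mzb1 are members of the set, did not move as one. Against CpG cells, TLR cells had 3 of its genes called higher by the same edgeR fit (Irf4, Sdc1 and Tnfrsf13b) and 7 lower (Prdm1, Mzb1, Sec11c, Cd93, Zbtb20, Creb3l2 and Edem1), with a median log2 fold change of -0.57. Of these 7, Prdm1 and Mzb1 were lower by the way they were chosen, so the other 5 are the tested calls. Over all tested genes 38.8% were called in that contrast, 19.0% higher and 19.8% lower, with a median of -0.02. Sdc1, the plasma cell surface marker CD138, averaged 30.3 ± 6.85 CPM in TLR, 4.80 ± 3.05 CPM in CpG and 23.1 ± 1.18 CPM in Naive cells (SD, n = 2, 3 and 3). It was thus high where Prdm1 was low. Xbp1, which runs the secretory programme below Blimp-1, averaged 288 ± 27.8 CPM in TLR, 321 ± 11.3 CPM in CpG and 151 ± 6.66 CPM in Naive cells, and its log2 fold change of -0.17 against CpG was not called (edgeR adjusted p = 0.28). Against Naive cells, TLR cells had 5 of the 17 genes higher and 9 lower, with a median of -0.45.

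In the germinal centre list (14 tested), TLR cells had 2 genes higher than CpG cells (Ung and Apex1) and 5 lower, among them Mef2c, Mybl1, Plxnb2 and Nuggc, with a median of -0.11. Of these 5, 2 were lower by the way the 97 genes were chosen, Mybl1 among them. Ung, the glycosylase that removes uracil from DNA, averaged 101 ± 12.2 CPM in TLR, 29.5 ± 6.21 CPM in CpG and 12.9 ± 0.360 CPM in Naive cells. Apex1, the endonuclease that cuts where a base has been removed, averaged 24.97 ± 8.07 CPM in TLR, 10.98 ± 2.65 CPM in CpG and 9.64 ± 1.22 CPM in Naive cells. Both repair enzymes were thus higher in TLR than in CpG cells, and Mybl1 was lower. Against Naive cells, TLR cells had 4 of the 14 genes higher and 3 lower. The shares of all tested genes were 19.0% higher and 19.8% lower than CpG cells, and 31.6% and 29.7% than Naive cells. In the regulatory B cell list (23 tested), which holds Prdm1, TLR cells had 6 genes higher and 5 lower than CpG cells, Prdm1 lower by choice, and 6 higher and 10 lower than Naive cells.

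The secretory pathway was represented by 3 genes, of which 1 was called higher and 1 lower in TLR than in Naive cells. Mzb1, a chaperone of antibody assembly in the endoplasmic reticulum, had the highest CpG mean in CPM. It had 139 and 139.6 CPM in TLR libraries, 704, 639.7 and 604 CPM in CpG libraries, and 265, 175 and 177 CPM in Naive libraries. Both TLR libraries were below every Naive library, with a log2 fold change of -0.56 ± 0.18 (edgeR adjusted p = 0.0239). That call was lost without Naive replicate 1 (-0.36, edgeR adjusted p = 0.0535), without TLR replicate 1 (-0.54, 0.103) and without TLR replicate 2 (-0.56, 0.0893). Of its exonic bases, 57.2% also lie in an exon of SPATA24 on the same strand, so its counts are uncertain. Sec24d, a cargo adaptor of COPII vesicles, had 16.1 and 24.0 CPM in TLR libraries, 55.3, 97.3 and 70.7 CPM in CpG libraries, and 11.8, 5.83 and 6.47 CPM in Naive libraries. The log2 fold change of TLR over Naive was 1.33 ± 0.32 (edgeR adjusted p = 0.00535), or 1.01 without TLR replicate 2, where the call was lost (0.0599). Rcn3, a calcium-binding protein of the endoplasmic reticulum, had 9.40 and 7.62 CPM in TLR libraries, inside the Naive range of 5.58 to 11.96 CPM.

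Among 12 genes of secreted proteins, 5 were called higher in TLR than in Naive cells and 3 lower. Wfdc21, a small secreted protein with a WAP domain, kept more of its CpG level than any other of the 97 genes. It had 105 and 130.2 CPM in TLR libraries, 494, 339 and 232 CPM in CpG libraries, and 2.98, 3.29 and 2.77 CPM in Naive libraries. In TLR over Naive cells the log2 fold change was 5.29 ± 0.31 (edgeR adjusted p = 9.83e-07). Per kilobase of exon it also led the set in CpG cells, with 819 CPM per kb, followed by Mzb1 with 534 and Cfp with 308 CPM per kb. Slit3, a ligand of Robo guidance receptors, had 9.12 and 13.8 CPM in TLR libraries, 39.5, 35.7 and 49.4 CPM in CpG libraries, and 1.91, 0.747 and 0.261 CPM in Naive libraries. Dkk3, of the Dickkopf family, fell further, to 1.42 and 1.75 CPM in TLR libraries, against 29.2, 24.8 and 22.1 CPM in CpG libraries and 0.159, 0.299 and 0.209 CPM in Naive libraries. Slit3 and Dkk3 were both called higher in TLR than in Naive cells (log2 fold changes 3.57 ± 0.48 and 2.80 ± 0.33, edgeR adjusted p = 0.000152 and 6.64e-05). Lamb2, a laminin chain, was also called (3.13 ± 0.51, edgeR adjusted p = 0.000522), and these 4 calls held without each library in turn. Gh, growth hormone, had a log2 fold change of 0.53 ± 0.19 and lost its call without TLR replicate 2 (0.36, edgeR adjusted p = 0.244) and without any 1 Naive library (0.50 to 0.53, 0.0820 to 0.0825).

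Cfp encodes properdin, which stabilises the alternative complement convertase, and Grn encodes the growth factor progranulin. Cfp had 122.7 and 151 CPM in TLR libraries, 643, 414 and 549 CPM in CpG libraries, and 156, 73.4 and 64.5 CPM in Naive libraries. The highest Naive value was that of replicate 1, the library with the most macrophage marker RNA. The log2 fold change of 0.49 ± 0.34 was not called (edgeR adjusted p = 0.224) but was 0.97 without that library (edgeR adjusted p = 0.00479). Grn had 131 and 119.7 CPM in TLR libraries, 465, 512 and 525 CPM in CpG libraries, and 190.3, 124 and 108 CPM in Naive libraries, again highest in Naive replicate 1. Both are also made by macrophages, whose part in the Naive values was not tested. Csf1, the macrophage growth factor, had 9.52 and 10.7 CPM in TLR libraries, 33.6, 39.7 and 32.9 CPM in CpG libraries, and 7.87, 7.72 and 10.96 CPM in Naive libraries. TLR and Naive libraries overlapped (log2 fold change 0.19 ± 0.20, edgeR adjusted p = 0.419). Of 26 tested cytokine and chemokine genes, TLR cells had 11 higher than CpG cells and 3 lower, which were Il16, Ltb and, by the way it was chosen, Csf1. They had 10 higher and 9 lower than Naive cells. The shares of all tested genes were 19.0% higher and 19.8% lower than CpG cells, and 31.6% and 29.7% than Naive cells.

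Lipc, hepatic lipase, had 2.79 and 3.19 CPM in TLR libraries, 34.0, 21.4 and 52.8 CPM in CpG libraries, and 7.60, 5.83 and 5.38 CPM in Naive libraries. Both TLR libraries were below all Naive libraries, with a log2 fold change of -1.06 ± 0.36 (edgeR adjusted p = 0.0282). Its call was lost without Naive replicate 1 (-0.92, edgeR adjusted p = 0.0719), without TLR replicate 1 (-0.95, 0.136) and without TLR replicate 2 (-1.16, 0.0847). Dkkl1, a secreted relative of the Dickkopf proteins, had 0.456 and 1.34 CPM in TLR libraries, 7.72, 10.2 and 6.14 CPM in CpG libraries, and 4.41, 1.74 and 1.83 CPM in Naive libraries. Its log2 fold change of -1.53 ± 0.57 lost the call without Naive replicate 1 (-0.99, edgeR adjusted p = 0.112), CpG replicate 1 (-1.53, 0.0532) or TLR replicate 1 (-0.96, 0.229), and was -2.52 without TLR replicate 2. Adamtsl4, a matrix protein, had a log2 fold change of -1.07 ± 0.39 and lost its call in 5 of the 8 cases: without Naive replicates 1 and 2, CpG replicate 3, and either TLR library (-0.84 to -1.34). The protease inhibitor Serpine2 was not called.

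The largest role group was surface receptors and adhesion, with 16 genes, of which 5 were called higher in TLR than in Naive cells and 2 lower. Cldn2 and Cdhr2 were the genes with the largest CpG-to-Naive ratios. Cldn2, a claudin that forms cation pores in leaky epithelia, had 6.10 and 11.01 CPM in TLR libraries, 61.1, 62.5 and 136 CPM in CpG libraries, and 0.159, 0.0498 and 0.0522 CPM in Naive libraries. Those Naive values stand for 5 counts in all. Cdhr2, a protocadherin that links brush border microvilli, had 2.96 and 2.88 CPM in TLR libraries, 104, 76.0 and 74.0 CPM in CpG libraries, and 0.106, 0.299 and 0.0522 CPM in Naive libraries. In TLR cells both were far below CpG cells and above every Naive library. The log2 fold changes of TLR over Naive were 6.54 ± 0.66 for Cldn2 and 4.18 ± 0.42 for Cdhr2 (edgeR adjusted p = 2.23e-05 and 2.16e-05). Cdh16, a cadherin of kidney tubules, had 1.42 and 3.40 CPM in TLR libraries, 18.98, 28.1 and 11.2 CPM in CpG libraries, and 0.0531, 0.0498 and 0.104 CPM in Naive libraries (log2 fold change 5.01 ± 0.68, edgeR adjusted p = 0.000157). These 3 calls held without each library in turn.

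Cdh17, the cadherin of intestinal epithelium that B cells also carry, went the other way. It had 12.5 CPM in both TLR libraries, 181, 222 and 279 CPM in CpG libraries, and 26.6, 25.9 and 17.9 CPM in Naive libraries. TLR cells were thus below Naive cells, with a log2 fold change of -0.90 ± 0.22 (edgeR adjusted p = 0.00488). Of 32 epithelial junction and brush border genes listed, 16 were expressed enough to be tested, and their calls went in both directions. TLR cells had 6 lower than CpG cells (Cldn2, Cldn10, Tjp3, Cdh17, Cdhr2 and Slc9a3r1) and 2 higher (Cldn12 and Epcam), where Cldn2, Cdh17 and Cdhr2 were lower by the way they were chosen. They had 5 higher and 7 lower than Naive cells. The shares of all tested genes were 19.0% higher and 19.8% lower than CpG cells, and 31.6% and 29.7% than Naive cells. Cldn12, another claudin, averaged 17.8 ± 4.04 CPM in TLR, 3.89 ± 2.05 CPM in CpG and 1.12 ± 0.162 CPM in Naive cells. The epithelial keratin Krt8 was at 0 in both the TLR and the CpG libraries, and the E-cadherin gene Cdh1 likewise.

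A cluster of 3 neighbouring genes of the Ly6 family on chromosome 15 (Lynx1, Ly6k and Gml) was in the set. These encode small GPI-anchored surface proteins, and Lynx1 is known to modulate nicotinic acetylcholine receptors. In the reference annotation 43.8 kb with 2 other coding genes lie between Lynx1 and Ly6k, and 13.5 kb with 0 between Ly6k and Gml. Lynx1 had 59.3 and 60.3 CPM in TLR libraries, 526, 291 and 476 CPM in CpG libraries, and 135, 147 and 137 CPM in Naive libraries. It ended below the Naive level in both TLR libraries (log2 fold change -1.22 ± 0.22, edgeR adjusted p = 0.00106), a call that held without each library in turn. Ly6k had 3.99 and 6.54 CPM in TLR libraries, 14.4, 15.8 and 55.3 CPM in CpG libraries, and 5.10, 6.33 and 5.27 CPM in Naive libraries. Gml had 0.513 and 0.360 CPM in TLR libraries, 5.76, 5.40 and 5.59 CPM in CpG libraries, and 0.478, 0.249 and 0.626 CPM in Naive libraries. TLR and Naive libraries overlapped in both, and neither was called. Of the exonic bases of Ly6k, 47.6% overlap a gene on the opposite strand, and the counting ignored strand.

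Cd36, the scavenger receptor for fatty acids and oxidised lipoproteins, had 71.0 and 70.6 CPM in TLR libraries, 552, 377 and 373 CPM in CpG libraries, and 90.9, 99.2 and 85.1 CPM in Naive libraries. Both TLR libraries were below all Naive libraries, but the log2 fold change of -0.37 ± 0.18 was not called (edgeR adjusted p = 0.107) and passed without CpG replicate 1 (-0.36, edgeR adjusted p = 0.0115). Il7r, the interleukin-7 receptor chain of lymphoid progenitors and T cells, had 4.67 and 3.45 CPM in TLR libraries, 24.8, 32.6 and 82.9 CPM in CpG libraries, and 2.29, 2.24 and 7.83 CPM in Naive libraries. It was highest in CpG replicate 3. T cell markers summed to 244, 253 and 182 CPM in CpG replicates 1 to 3, and their part in the Il7r values was not tested. Of 38 tested cytokine receptor and JAK-STAT genes, TLR cells had 10 lower than CpG cells, Il7r among them by the way it was chosen, and 8 higher. Against Naive cells 10 of the 38 were higher and 17 lower. Itgam, the integrin chain CD11b of myeloid cells and some B cells, had 11.2 and 6.38 CPM in TLR libraries, 42.5, 41.0 and 48.4 CPM in CpG libraries, and 13.8, 4.68 and 6.73 CPM in Naive libraries. The part of macrophage RNA in the Itgam values was not tested. Of its exonic bases, 68.7% are shared with the annotated gene Gm49368 on the same strand, so its counts are uncertain. Of 24 tested integrin and adhesion genes, TLR cells had 4 higher and 8 lower than CpG cells, Itgam lower by choice. Against Naive cells 4 of the 24 were higher and 13 lower. The shares of all tested genes were 19.0% higher and 19.8% lower than CpG cells, and 31.6% and 29.7% than Naive cells.

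Vangl2, a planar polarity protein, had 25.3 and 32.3 CPM in TLR libraries, 108, 102 and 80.7 CPM in CpG libraries, and 19.1, 20.5 and 17.2 CPM in Naive libraries. TLR over Naive cells gave a log2 fold change of 0.61 ± 0.17 (edgeR adjusted p = 0.0112), or 0.42 without TLR replicate 2, where the call was lost (0.121). Lrig1, a brake on growth factor receptors, was called at 0.96 ± 0.30 and lost the call without Naive replicate 2 (0.81, edgeR adjusted p = 0.0680) or TLR replicate 1 (0.86, 0.0943). Cd244a, the SLAM family receptor 2B4 known from natural killer cells, had 6.84 and 4.48 CPM in TLR libraries, 39.3, 34.7 and 17.9 CPM in CpG libraries, and 12.9, 6.28 and 7.05 CPM in Naive libraries. The 11 natural killer markers summed to 1.37 and 1.80 CPM in TLR libraries, 1.71 to 2.97 CPM in CpG libraries and 20.03 to 101 CPM in Naive libraries. Ncr1, Gzma and Klra4 were at 0 in all TLR and CpG libraries, Nkg7 in the TLR libraries and Klrk1 in the CpG libraries. Their part in the Naive level of Cd244a was not tested. Tnfrsf19, Ifnlr1 and Sema4g, receptors of the TNF, interferon lambda and semaphorin systems, were not called. Tnfrsf19 passed without CpG replicate 1, 2 or 3 (1.30, 1.30 and 1.29, edgeR adjusted p = 0.0431, 0.0495 and 0.00459), although its TLR and Naive values stayed as they were.

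Among 7 channels, transporters and surface enzymes, 5 were called higher in TLR than in Naive cells and 2 were not called. Over all tested genes 31.6% were called higher. Enpep, Fxyd6 and Slc17a4 passed the expression filter through the CpG libraries alone, and Enpep is among the 5. Steap4, a metalloreductase of iron and copper uptake that inflammatory signals induce, had 7.12 and 7.10 CPM in TLR libraries, 107, 99.7 and 128 CPM in CpG libraries, and 1.81, 4.78 and 4.54 CPM in Naive libraries. Only 3.15% of the CpG difference was left. The log2 fold change of TLR over Naive was 0.93 ± 0.32 (edgeR adjusted p = 0.0279). That call was lost without TLR replicate 1 (0.95, edgeR adjusted p = 0.0900) or TLR replicate 2 (0.93, 0.0966), and the value was 0.59 without Naive replicate 1. Ggt1, which cleaves glutathione outside cells, had 2.68 and 2.42 CPM in TLR libraries, 6.39, 12.5 and 9.26 CPM in CpG libraries, and 0.106, 0.149 and 0.261 CPM in Naive libraries (log2 fold change 3.84 ± 0.45, edgeR adjusted p = 5.91e-05). Grin2d, an NMDA receptor subunit, and Ache, acetylcholinesterase, were called at 1.72 ± 0.36 and 2.47 ± 0.56 (edgeR adjusted p = 0.00239 and 0.00356). These 3 calls held without each library in turn.

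Enpep, aminopeptidase A, had 26 counts in TLR libraries, 278 in CpG libraries and 1 in Naive libraries. The ratio of CpG to Naive, a contrast by which the gene was chosen, was 305. The ratio of TLR to Naive was 40.8 (95% exact counting interval 6.70 to 1673). The interval pools counts over libraries and leaves out the spread between them. The fitted log2 fold change of TLR over Naive was 4.86 (edgeR adjusted p = 0.0138). Without TLR replicate 2 it was 3.29, and the call was lost. Fxyd6, a regulator of the sodium pump, had 0.399 and 0.257 CPM in TLR libraries, 17.2, 4.24 and 5.53 CPM in CpG libraries, and 0, 0.0498 and 0.418 CPM in Naive libraries. It stood out in CpG replicate 1. Slc17a4, an anion transporter of the gut, had 0.228 and 0.412 CPM in TLR libraries, 6.20, 4.72 and 10.9 CPM in CpG libraries, and 0.213, 0.299 and 0.209 CPM in Naive libraries. Neither was called against Naive. These 3 genes, with Gramd2, Gml and Fam81a, were expressed enough for the test only in the CpG libraries.

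The 14 genes of intracellular signalling included 3 called higher in TLR than in Naive cells and 2 lower. Prkca encodes protein kinase C alpha, one of the enzymes PMA activates directly. It had 35.2 and 28.4 CPM in TLR libraries, 126, 124 and 156 CPM in CpG libraries, and 36.8, 44.7 and 36.3 CPM in Naive libraries. Both TLR libraries were below all Naive libraries, but the log2 fold change of -0.30 ± 0.16 was not called (edgeR adjusted p = 0.124). Pitpnc1, a phosphatidylinositol transfer protein whose gene lies 463 kb from Prkca on chromosome 11 with 5 coding genes between, had 39.2 and 48.3 CPM in TLR libraries, 145, 195 and 153 CPM in CpG libraries, and 57.6, 41.4 and 39.4 CPM in Naive libraries. Its TLR and Naive libraries overlapped. Plcd3, a phospholipase C, had 23.6 and 21.0 CPM in TLR libraries, 122, 94.5 and 96.9 CPM in CpG libraries, and 6.11, 2.84 and 3.497 CPM in Naive libraries. In TLR over Naive cells the log2 fold change was 2.44 ± 0.26 (edgeR adjusted p = 3.27e-05). Camkk1, a kinase that responds to calcium and calmodulin, had 11.8 and 24.9 CPM in TLR libraries, 109, 99.5 and 84.3 CPM in CpG libraries, and 5.63, 7.03 and 4.59 CPM in Naive libraries. It was called at 1.68 ± 0.30 (edgeR adjusted p = 0.000826), and had 1.04 without TLR replicate 2.

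Plcd3 and Camkk1 kept their calls without each library in turn. Fgf11, a growth factor relative that stays inside the cell, was called at 1.80 ± 0.51 and lost the call without TLR replicate 2 (1.40, edgeR adjusted p = 0.0964). On the lower side, Grb7, an adaptor of receptor tyrosine kinases, had 3.19 and 1.65 CPM in TLR libraries, 22.4, 17.4 and 12.5 CPM in CpG libraries, and 5.63, 4.53 and 4.85 CPM in Naive libraries. Its log2 fold change of -1.05 ± 0.35 (edgeR adjusted p = 0.0239) was -0.98 without Naive replicate 1 (0.0508), -1.58 without TLR replicate 1 and -0.65 without TLR replicate 2 (0.186). Kalrn, an exchange factor for small GTPases, had 2.39 and 2.78 CPM in TLR libraries, 15.8, 13.4 and 13.97 CPM in CpG libraries, and 4.31, 4.19 and 5.01 CPM in Naive libraries. Its log2 fold change of -0.79 ± 0.23 (edgeR adjusted p = 0.0135) lost the call without TLR replicate 1 (-0.68, 0.0918). The other 9, among them adenylyl cyclase 6 (Adcy6), the kinases Map3k12 and Dapk2 and the ubiquitin ligases March3 and Neurl1b, were not called. Dapk2 passed without Naive replicate 1 (2.76, edgeR adjusted p = 0.000945), and the actin regulator Eps8 likewise (-0.52, 0.0440).

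Metabolic enzymes gave 13 genes, of which 3 were called higher in TLR than in Naive cells and 2 lower. Csgalnact1, which starts chondroitin sulfate chains, had 6.67 and 4.48 CPM in TLR libraries, 27.5, 18.1 and 39.4 CPM in CpG libraries, and 0.531, 0.249 and 0.522 CPM in Naive libraries. TLR over Naive cells gave a log2 fold change of 3.67 ± 0.42 (edgeR adjusted p = 5.04e-05). Elovl7, a fatty acid elongase, and Etnk2, an ethanolamine kinase, were called at 2.47 ± 0.54 and 2.79 ± 0.55 (edgeR adjusted p = 0.00300 and 0.00158), and all 3 calls held without each library in turn. Adssl1, the adenylosuccinate synthase of muscle, had 4.39 and 7.87 CPM in TLR libraries, 51.0, 71.4 and 47.1 CPM in CpG libraries, and 18.8, 12.2 and 11.6 CPM in Naive libraries. Both TLR libraries lay below all Naive libraries. Its log2 fold change of -1.20 ± 0.31 (edgeR adjusted p = 0.00764) lost the call without TLR replicate 1 (-0.83, 0.0745). Ak8, an adenylate kinase, was called at -1.19 ± 0.43 and lost the call without Naive replicate 1 (-0.93, edgeR adjusted p = 0.0891), TLR replicate 1 (-0.96, 0.171) or TLR replicate 2 (-1.47, 0.0636). Ckb, brain creatine kinase, had 5.98 and 11.3 CPM in TLR libraries, 26.4, 31.7 and 20.5 CPM in CpG libraries, and 11.4, 5.03 and 3.39 CPM in Naive libraries. It was not called (0.40 ± 0.46, edgeR adjusted p = 0.467) but passed without Naive replicate 1 (1.02, 0.0356). The remaining 7 (Fah, Abhd6, Dhrs3, Ptgr1, Pcyt1b, Cdo1 and Fggy) were not called.

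Of 9 genes of cell division and the cytoskeleton, 3 were called higher in TLR than in Naive cells and 1 lower. Gas7, an actin-binding protein known from neurons, had 0.399 and 0.978 CPM in TLR libraries, 19.05, 33.6 and 27.3 CPM in CpG libraries, and 8.61, 5.68 and 8.77 CPM in Naive libraries. It fell further below the Naive level than any other of the 97 genes, with a log2 fold change of -3.44 ± 0.42 (edgeR adjusted p = 7.87e-05), and the call held without each library in turn. Rsph1, a radial spoke protein of cilia, had 0.741 and 1.75 CPM in TLR libraries, 33.7, 23.0 and 23.4 CPM in CpG libraries, and 0.478, 0.698 and 0.157 CPM in Naive libraries. Its log2 fold change of 1.48 ± 0.53 (edgeR adjusted p = 0.0341) lost the call without Naive replicate 1 (1.51, 0.0662), Naive replicate 3 (1.08, 0.0873) or TLR replicate 2 (0.72, 0.381). Cdc14b, a phosphatase of mitotic exit, was called at 0.65 ± 0.19 and lost the call without Naive replicate 2 (0.55, edgeR adjusted p = 0.0559), Naive replicate 3 (0.56, 0.0548) or TLR replicate 1 (0.45, 0.140). Depdc1b, at 1.22 ± 0.46, lost it without any 1 library other than CpG replicates 1 and 2 (0.93 to 1.47). Nusap1, a spindle protein, had 16.1 and 24.2 CPM in TLR libraries, 39.7, 112 and 59.5 CPM in CpG libraries, and 13.8, 13.2 and 10.5 CPM in Naive libraries, and was not called (0.70 ± 0.37, edgeR adjusted p = 0.128) except without CpG replicate 2 (0.71, 0.0260). In a list of 31 cell cycle genes that holds none of these 9, CpG cells had 29 higher and 2 lower than Naive cells, where 23.5% and 21.9% of all tested genes were called, 45.5% in either direction. TLR cells had 6 of the 31 higher and 8 lower than CpG cells, and 26 higher and 3 lower than Naive cells.

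The 14 remaining genes held 5 called higher in TLR than in Naive cells and 9 not called. Rtl5, a gene descended from a retrotransposon, had 46.1 and 41.1 CPM in TLR libraries, 199, 174 and 229 CPM in CpG libraries, and 8.08, 6.73 and 7.203 CPM in Naive libraries. Its log2 fold change of 2.58 ± 0.14 (edgeR adjusted p = 7.43e-07) held without each library in turn, as did those of Depdc7 (3.46 ± 0.43) and 4930539E08Rik (1.08 ± 0.30). Lxn, a carboxypeptidase inhibitor, was called at 0.70 ± 0.25 and lost the call without any 1 Naive library or TLR replicate 1 (0.39 to 0.75). Gramd2 had 13 counts in TLR libraries, 663 in CpG libraries and 3 in Naive libraries. The ratio of CpG to Naive, a contrast by which the gene was chosen, was 242. That of TLR to Naive was 6.80 (95% exact counting interval 1.87 to 37.2). The interval pools counts over libraries and leaves out the spread between them. The call of TLR against Naive was lost without any 1 Naive library or TLR replicate 1. That TLR library had 0.684 CPM, and TLR replicate 2 had 0.0515 CPM. Wdfy1, an adaptor that brings TRIF to endosomal TLR3 and to TLR4, had 55.8 and 71.1 CPM in TLR libraries, 290.1, 149.8 and 172 CPM in CpG libraries, and 43.3, 42.6 and 41.3 CPM in Naive libraries. Both TLR libraries were above all Naive libraries, but the log2 fold change of 0.59 ± 0.25 was not called (edgeR adjusted p = 0.0665) except without CpG replicate 1 (0.60, 0.00282) or 2 (0.60, 0.0376). Ypel2 had 15.5 and 21.3 CPM in TLR libraries, 129, 78.1 and 126 CPM in CpG libraries, and 15.5, 13.7 and 12.9 CPM in Naive libraries, and was not called.

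The CpG libraries differed among themselves more in these genes than over tested genes in general. The highest CpG library was a median of 1.63 times the lowest over the 97 genes, against 1.31 times over 9888 tested genes with a CpG mean of at least 5 CPM. These sets were not matched for level, and the rule used the same CpG values. That ratio was 2 or more in 29 genes and 3 or more in 9. In 40 genes replicate 1 was the highest CpG library, in 24 replicate 2 and in 33 replicate 3, against 36.4%, 29.7% and 33.9% of all tested genes. Replicate 3 stood above the other CpG libraries in Tnfrsf19 (20.8, 24.5 and 80.7 CPM in CpG replicates 1 to 3), Ly6k, Il7r, Cntln (5.76, 6.84 and 18.9 CPM), Serpine2 (5.88, 8.58 and 21.5 CPM) and Enpep (1.96, 2.60 and 10.8 CPM). Replicate 2 stood above in Nusap1, Depdc1b (4.49, 12.2 and 6.68 CPM), Tmem255a (4.81, 17.3 and 7.72 CPM) and Sema4g (7.15, 13.1 and 2.85 CPM). Cell cycle genes summed to 2876, 5039 and 4499 CPM in CpG replicates 1 to 3, and their part in the CpG values of Nusap1 and Depdc1b was not tested.

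The 97 genes were near the other expressed coding genes in exonic length and had a longer median span, which was not tested. Their median exonic length was 4474 bases, against 4657.5 bases over tested coding genes with a CpG mean of at least 5 CPM, and their median span was 31.4 kb, against 24.2 kb. Chromosome 11 held 13 of them (13.4%, against 8.61% of those coding genes). Besides the Ly6 genes, close neighbours were Elovl7 and Depdc1b, 30.6 kb apart on chromosome 13 with 0 coding genes between, Wdfy1 and Serpine2, 18.1 kb apart on chromosome 1 with 1 between, and Gfi1b and Ak8, 78.2 kb apart on chromosome 2 with 2 between. In TLR against Naive cells, Elovl7 and Depdc1b were both called higher, Gfi1b was called higher and Ak8 lower, and neither Wdfy1 nor Serpine2 was called. Exon overlap with some other gene was found for 25 of the 97, in 22 cases with the opposite strand alone. The share of exonic bases involved was largest in Itgam (68.7%), Mzb1 (57.2%), Ly6k (47.6%) and Dzip1 (28.4%). Itgam and Mzb1 share those bases with a gene on the same strand. Ly6k and Dzip1 share them with one on the opposite strand, which the counting did not tell apart.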

How the data were processed

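Per the labels' protocols, RNA was poly(A)-selected and made into strand-specific libraries. Per the submitters' processing notes, the authors used STAR, HTSeq and edgeR with build mm9, no versions given, and deposited raw read counts per gene, 1 file per library; the file names say that counting ignored strand. Identifiers were matched to GENCODE M21 (32860 of 37583), which also gave gene structure; the unmatched held at most 1.01% of counts. CPM is the count over the sum of gene rows. Counts were fitted in R 4.3.3 with edgeR 4.0.16 (filterByExpr, TMM, quasi-likelihood, a mean per group over all 8 libraries), with p-values adjusted over 13964 genes. SE is the log2 fold change over the square root of F. DESeq2 1.42.0 and other settings were alternatives, and the fit was tested on simulated data.

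The genes and lists were chosen with earlier results of these data known. Genes with values per library are the 15 highest in CpG, the 6 with the largest ratio, up to 8 called in each direction, those in a list, and those nearest the thresholds; others were added after their values were seen. Of 3 genes the rule leaves out by name, 2 met its other terms. Replicate numbers were not treated as pairs: same-numbered libraries correlated at 0.127 and 0.0250 (TLR and Naive), 0.325 and 0.297 (TLR and CpG), and 0.160, 0.104 and 0.00359 (CpG and Naive), so not every pair was over 0.1. Of the 97 genes, 1 enters the counts but is not reported here.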

Additional observations from a re-analysis of the deposited data

How the results depend on the processing

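The number of genes meeting the rule was 97, and became 253 with a threshold of 2 times, 52 with a threshold of 4 times, and 93 to 107 with a library left out; under the other 6 settings it was 71 to 126. Restricting to the 5 libraries with the common prefix gave 108 genes, 80 of them shared. The 34 genes called higher in TLR than in Naive cells became 26 to 38 with a library left out and 31 to 37 otherwise (DESeq2, 35). The 11 called lower became 6 with the common prefix alone, 4 to 11 with a library left out, and 9 to 12 otherwise (DESeq2, 12). With the replicate block, 34 were higher and 12 lower, of which 31 and 10 were shared with the fit without it. Of the 34 and 11, 20 and 3 kept their call under every setting. The median share of the CpG difference left in TLR cells, 5.54%, was 14.5% on the log2(CPM + 1) scale and 3.31% to 8.03% with a library left out; the cause was not tested. Of 37 genes named by rule, 21 were called, 9 of these lost the call and 6 others gained one under at least 1 setting; none changed direction while called. With 2 TLR libraries, genes under about 1 CPM rest on few counts, and intervals cover counting error only.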
